A study of Mus musculus with 27 samples.

Results

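The levels of 8 genes of the sarcomere's scaffold were followed through the differentiation of mouse embryonic stem cells: Ttn, Actn2, Mybpc3, Myom1, Ldb3, Myoz2, Csrp3 and Tcap. They were chosen by name, as titin and genes of the Z-disc, the M-band and the thick filament's C-zone, and all 8 of 8 were found on the array through its gene symbols, by 15 of its 45101 probe sets. Where a gene had several probe sets, the one with the highest mean signal was used, and the others served as a check. A level here is a log2 expression value, on which a step of 1 is a doubling of signal, and 7 of the 8 genes passed the filter on low values and were tested among 13297 genes.

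The cells were of the mouse line AB2.2 and carried a lentiviral vector for eGFP, a green fluorescent protein, and for a short hairpin RNA (shRNA), which the cell processes into a small RNA that silences matching transcripts. In the Sox17 shRNA arm the hairpin was directed against Sox17, a transcription factor of the endoderm, and in the control arm against firefly luciferase, which mouse cells lack. All cells of both arms were thus transduced and sorted for the fluorescent protein, were grown as embryoid bodies in hanging drops and were moved to culture plates at day 4.5. RNA was taken before differentiation (day 0), in suspension (days 2 and 4) and after plating (days 5, 6, 8 and 10). Each group had 2 biological replicates, except day 0 of the Sox17 shRNA arm, which had 1 array. Whether replicates were transduced separately is not stated in the labels, and the samples are whole cultures.

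The sarcomere is the contractile unit of striated muscle. At its ends, the Z-discs, alpha-actinin ties the actin filaments of neighbouring sarcomeres together. At its middle, the M-band, myomesin ties the myosin filaments. Titin is a giant elastic protein that runs from the Z-disc to the M-band and holds the myosin filaments in place. In mouse embryoid bodies these genes are known as products of the cardiomyocytes that form there and beat after plating.

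Promoter sequence was set beside the levels because most of the 8 genes rose together. RefSeq windows of GRCm38.p6 were at hand for 7 of the 8 genes (9 windows), while Tcap had no entry. The 250 bases before the annotated start were searched on both strands for the MEF2 motif and the CArG box, by name, and for CATTCC, for CAGCTG, for AGATAA or TGATAA, and for TNAAGTG. The 4 windows printed here each hold a MEF2 motif or a CArG box, which not all windows of the 7 genes do. They are those of the thick filament's partners Ttn and Mybpc3, of the M-band gene Myom1 and of Myoz2. Each is read 5′ to 3′ along the gene's strand. The first 3 belong to genes that rose, and the last to Myoz2, which stayed below the filter value on every array. Capitals mark the MEF2 motif in Ttn, Mybpc3 and Myoz2, and the CArG box in Myom1.
Ttn, chr2:76982548-76982797, minus strand: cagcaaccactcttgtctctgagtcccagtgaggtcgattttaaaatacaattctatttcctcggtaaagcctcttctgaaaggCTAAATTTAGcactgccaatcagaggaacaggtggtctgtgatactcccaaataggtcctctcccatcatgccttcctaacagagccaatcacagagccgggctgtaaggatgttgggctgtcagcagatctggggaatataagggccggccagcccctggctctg
Mybpc3, chr2:91117894-91118143, plus strand: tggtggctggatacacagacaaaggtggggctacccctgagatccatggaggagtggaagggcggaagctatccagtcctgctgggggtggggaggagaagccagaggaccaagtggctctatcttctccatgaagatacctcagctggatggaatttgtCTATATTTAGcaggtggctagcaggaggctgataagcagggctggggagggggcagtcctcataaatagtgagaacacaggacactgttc
Myom1, chr17:71019307-71019556, plus strand: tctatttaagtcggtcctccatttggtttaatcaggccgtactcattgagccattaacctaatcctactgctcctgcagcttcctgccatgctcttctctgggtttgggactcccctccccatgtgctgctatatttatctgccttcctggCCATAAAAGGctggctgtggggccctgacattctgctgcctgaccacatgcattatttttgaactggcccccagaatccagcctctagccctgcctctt
Myoz2, chr3:123034988-123035237, minus strand: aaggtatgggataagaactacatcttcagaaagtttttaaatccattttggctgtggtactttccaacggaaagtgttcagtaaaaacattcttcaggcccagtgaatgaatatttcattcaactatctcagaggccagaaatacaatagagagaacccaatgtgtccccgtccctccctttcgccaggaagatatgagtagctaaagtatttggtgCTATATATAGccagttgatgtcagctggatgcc
The MEF2 motif lay 157 to 166 bases upstream of the start in Ttn, 81 to 90 bases upstream in Mybpc3 and 24 to 33 bases upstream in Myoz2. These were 3 of the 7 genes, and 2.92% of all 32851 windows of this length held it. The CArG box lay 90 to 99 bases upstream of the annotated start that follows the printed bases in Myom1, while 1.47% of all windows held it. It also stood in Ldb3, 26 to 35 bases upstream in the first of its windows. These windows of Myom1 and Ldb3 lie inside the annotated spans of their genes (71003332 to 71126856 and 34526699 to 34590314). Of the shorter motifs, CAGCTG was found in Mybpc3 and Myoz2 (13.00% of all windows), AGATAA or TGATAA in Mybpc3 and Myom1 (16.60%), TNAAGTG in Csrp3 (10.06%) and CATTCC in 0 of the 7 genes (12.64%). No MEF2 motif, CArG box or shorter motif was found in the window of Actn2. Neither window of Csrp3 held a MEF2 motif or a CArG box. Both genes rose in the control arm from day 0 to day 10, by 3.04 (Actn2) and 2.99 (Csrp3). A match describes these letters only, and Myoz2, with a MEF2 motif, read at most 4.76 on the 27 arrays.

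The deposited values spanned 2.66 to 14.5 over all probe sets, and array medians lay between 5.50 and 5.56. Over the 13297 genes tested, replicates correlated at r between 0.964 and 0.998. The SD of the difference between replicates over these genes was 0.10 to 0.34 in the control arm and 0.26 to 0.51 in the Sox17 shRNA arm. The signal of the bioB hybridisation control was 8.86 to 9.37 on 9 arrays, namely those of days 0 and 2 and those of replicate 1 at day 4, against 6.19 to 7.01 on the arrays of days 6 to 10. Changes against day 0 therefore coincide with a change of this control signal, whereas at days 6 to 10 both arms had like values of it (6.19 to 7.01 and 6.34 to 6.92). The summed level of 5 pluripotency markers (the log2 of their summed linear values) was 14.6 to 14.8 on the log2 scale at day 0 and 8.96 to 11.8 at days 6 to 10.

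The target of the hairpin, Sox17, was lower where it was aimed at, but unevenly. Averaged over days 6, 8 and 10 the difference was -1.84 on the log2 scale (SE 0.46, adjusted p = 0.0075, limma). Its levels at day 4 were 10.30 and 10.66 on the control arrays and 5.53 and 9.39 on the Sox17 shRNA arrays (-3.02, adjusted p = 0.0377), so the 2 latter arrays lay far apart. At days 5 and 8 the differences of -1.45 and -1.88 did not pass (adjusted p = 0.307 and 0.250). At day 6 its levels were 9.83 and 9.35 on the control arrays and 8.60 and 9.39 on the Sox17 shRNA arrays, a difference that did not pass the test (-0.60, adjusted p = 0.835). At day 10 they were 9.99 and 9.98 against 6.71 and 7.19 (-3.03, adjusted p = 0.0205). A lower Sox17 at day 6 was therefore not shown by the arrays of that day.

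In the control arm the main rise came after day 5: 5 of the 7 tested genes were higher at day 6 than at day 0, all 7 at day 8 and 6 at day 10. Of all genes tested, 28.1%, 31.9% and 31.5% were called higher at those 3 days, a gene being called at an adjusted p below 0.05 (limma, Benjamini-Hochberg over all genes tested). The median change of the 7 genes was 0.85 at day 6, 3.19 at day 8 and 3.04 at day 10, against -0.11, -0.14 and -0.13 over all genes. The count at day 8 was 6 without replicate 1 of control day 0 or of control day 8. At day 10 Ldb3 lost its call without replicate 2 of control day 0 (adjusted p = 0.211) or either control array of day 10 (0.0602 and 0.147), which left 5. In the Sox17 shRNA arm 0 of the 7 genes were called higher than at day 0 on day 6 (23.8% of all genes). On that day Ttn was called lower (-1.47, adjusted p = 6.70e-04), and Ldb3 was lower at an unadjusted p below 0.05 only. Later in that arm 3 were called higher at day 8 (26.8% of all genes) and the same number at day 10 (28.2%). In bulk samples fewer cells of a type and less RNA per cell cannot be told apart.

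**Figure D1:**
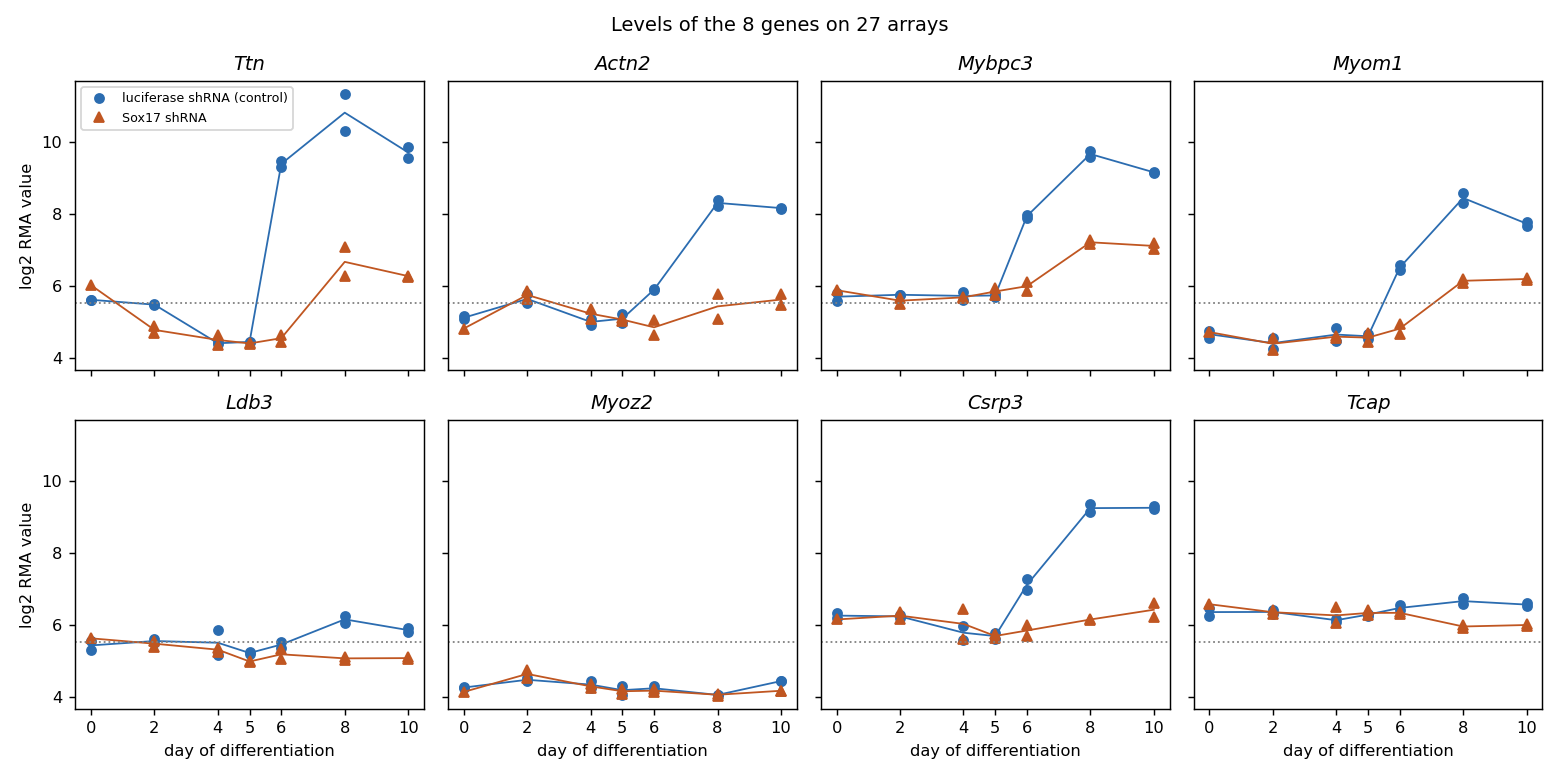
Levels (log2 expression value, vertical axis) of the 8 genes on all 27 arrays by day of differentiation; blue circles are control arrays, orange triangles Sox17 shRNA arrays, lines join group means, and the dotted line is the filter value of 5.53. Ttn, Actn2, Mybpc3, Myom1 and Csrp3 separate between the arms at day 8, and Myoz2 stays between 4.04 and 4.76.

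Ttn encodes titin. Its level was 5.62 on both control arrays of day 0, 4.45 and 4.46 at day 5, 9.31 and 9.47 at day 6, 11.33 and 10.30 at day 8, then 9.87 and 9.55 at day 10. On the Sox17 shRNA arrays it was 6.03 at day 0, 4.43 and 4.39 at day 5, 4.46 and 4.65 at day 6, 7.07 and 6.28 at day 8, then 6.29 and 6.26 at day 10. The arms lay close together at day 5 and far apart at days 6, 8 and 10, where every control array was above every Sox17 shRNA array. Within the control arm Ttn rose by 3.77 from day 0 to day 6 (SE 0.25, adjusted p = 7.39e-10, limma), and it had first fallen, by day 4, with a change of -1.21 (adjusted p = 7.14e-04). By the probe sets used it was the only 1 of the 7 genes called lower than day 0 at day 4, where 23.6% of all genes were. Other probe sets of Ldb3 were lower there too, in a fit over all 34958 single-symbol probe sets. They were 1433783_at (-1.29, adjusted p = 2.49e-05, limma) and 1451999_at (-0.70, adjusted p = 0.0037). With the Sox17 shRNA, Ttn at day 10 was 0.25 above day 0 (SE 0.31, adjusted p = 0.486). Against day 5, after the early fall, the same level was a rise of 1.87 (adjusted p = 1.01e-05), and Ttn rose by 2.12 from day 6 to day 8 (adjusted p = 3.68e-05).

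Titin's other 5 probe sets gave the same sign. In a fit over all 34958 single-symbol probe sets, 6 of 6 Ttn probe sets were lower in the Sox17 shRNA arm over days 6 to 10, where 6.85% of all such probe sets were. Their differences ran from -4.14 for the probe set used to -0.72 for the weakest, 1446450_at (adjusted p = 2.30e-06). At day 10 alone the difference of 1446450_at was -0.36 and did not pass (adjusted p = 0.151).

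Mybpc3 encodes cardiac myosin-binding protein C, which sits on the thick filament's C-zone and binds myosin and titin. On the control arrays its level was 5.60 and 5.81 at day 0, 7.99 and 7.90 at day 6, 9.75 and 9.59 at day 8, then 9.15 and 9.16 at day 10. On the Sox17 shRNA arrays it was 5.89 at day 0, 5.87 and 6.13 at day 6, 7.16 and 7.27 at day 8, then 7.04 and 7.19 at day 10. All control arrays from day 6 on were above all Sox17 shRNA arrays, and the latter rose too. The change from day 0 to day 10 was 3.45 in the control arm (SE 0.13, adjusted p = 3.22e-13, limma) and 1.23 in the Sox17 shRNA arm (SE 0.15, adjusted p = 2.27e-06).

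Myom1 encodes myomesin 1, the M-band protein that links neighbouring myosin filaments and binds titin. Its control levels were 4.76 and 4.57 at day 0, 6.45 and 6.58 at day 6, 8.58 and 8.32 at day 8, then 7.68 and 7.79 at day 10. Its Sox17 shRNA levels were 4.73 at day 0, 4.68 and 4.96 at day 6, 6.21 and 6.09 at day 8, then 6.18 and 6.22 at day 10. The groups of 1 day did not overlap from day 6 on, and the Sox17 shRNA arrays of days 8 and 10 came close to the control arrays of day 6. The change from day 0 to day 10 was 3.07 in the control arm (SE 0.16, adjusted p = 2.97e-11, limma) and 1.47 in the Sox17 shRNA arm (SE 0.20, adjusted p = 5.07e-06).

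Actn2 encodes alpha-actinin 2, the actin crosslinker that makes up the Z-disc. On the control arrays it stood at 5.16 and 5.09 at day 0, 5.89 and 5.92 at day 6, 8.39 and 8.23 at day 8, then 8.15 and 8.18 at day 10. On the Sox17 shRNA arrays it stood at 4.82 at day 0, 5.07 and 4.65 at day 6, 5.79 and 5.09 at day 8, then 5.78 and 5.48 at day 10. The control arm's main step thus fell between days 6 and 8 (2.41, SE 0.20, adjusted p = 4.67e-07, limma), and no Sox17 shRNA array of days 6 to 10 reached the control arrays of day 6. With the Sox17 shRNA Actn2 was 0.81 higher at day 10 than at day 0 (adjusted p = 0.0073), which without replicate 1 of day 10 was 0.66 and no longer passed. It had been as high at day 2, at 5.88 and 5.63, or 0.93 above day 0 (adjusted p = 0.0117). The control arrays of day 2 read 5.52 and 5.77, a change of 0.52 (adjusted p = 0.0494) that lost its call without any 1 of the 4 arrays compared.

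Csrp3 encodes muscle LIM protein, a Z-disc partner of alpha-actinin. Its control levels were 6.20 and 6.33 at day 0, 6.97 and 7.27 at day 6, 9.35 and 9.14 at day 8, then 9.31 and 9.21 at day 10. Its Sox17 shRNA levels were 6.16 at day 0, 5.71 and 6.00 at day 6, 6.18 and 6.14 at day 8, then 6.23 and 6.63 at day 10. The Sox17 shRNA arrays stayed near their day 0 value throughout, with a change of 0.27 to day 10 (SE 0.26, adjusted p = 0.366, limma), whereas the control arm rose by 2.99 (SE 0.21, adjusted p = 1.09e-09). Against day 5 the Sox17 shRNA arm was 0.73 higher at day 10 (adjusted p = 0.0085), and with the bioB signal as a covariate it was 0.87 above day 0 (adjusted p = 0.0081).

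Ldb3 encodes Cypher, also called ZASP, a PDZ and LIM domain protein that binds alpha-actinin at the Z-disc. By the probe set that the rule chose, 1416752_at, its control levels were 5.56 and 5.32 at day 0, 5.38 and 5.55 at day 6, 6.26 and 6.07 at day 8, then 5.80 and 5.92 at day 10. The Sox17 shRNA levels were 5.64 at day 0, 5.05 and 5.33 at day 6, 5.11 and 5.04 at day 8, then 5.11 and 5.06 at day 10. These are small movements near the filter value, and the arms did not overlap at days 8 and 10. At day 6 they all but met, at 5.33 and 5.38, and the difference was not called (-0.27, adjusted p = 0.489, limma). A second probe set, 1433783_at, moved far more.
On the control arrays 1433783_at read 5.24 and 5.17 at day 0, 3.93 and 3.85 at day 5, 7.30 and 7.10 at day 6, 8.78 and 8.46 at day 8, then 8.23 and 8.22 at day 10. On the Sox17 shRNA arrays it read 4.68 at day 0, 4.01 and 3.95 at day 5, 4.26 and 4.55 at day 6, 6.12 and 5.45 at day 8, then 5.65 and 5.39 at day 10. Its course was a fall to day 5 and a late rise, larger in the control arm, with no overlap of the arms from day 6 on. In the fit over all single-symbol probe sets its control change from day 0 to day 8 was 3.41, against 0.72 for the chosen probe set and 0.42 for the third, 1451999_at. In the Sox17 shRNA arm the probe sets opposed each other from day 0 to day 10, with -0.55 for the chosen one (adjusted p = 0.0362, limma) and 0.84 for 1433783_at (adjusted p = 0.0054).

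**Figure D2:**
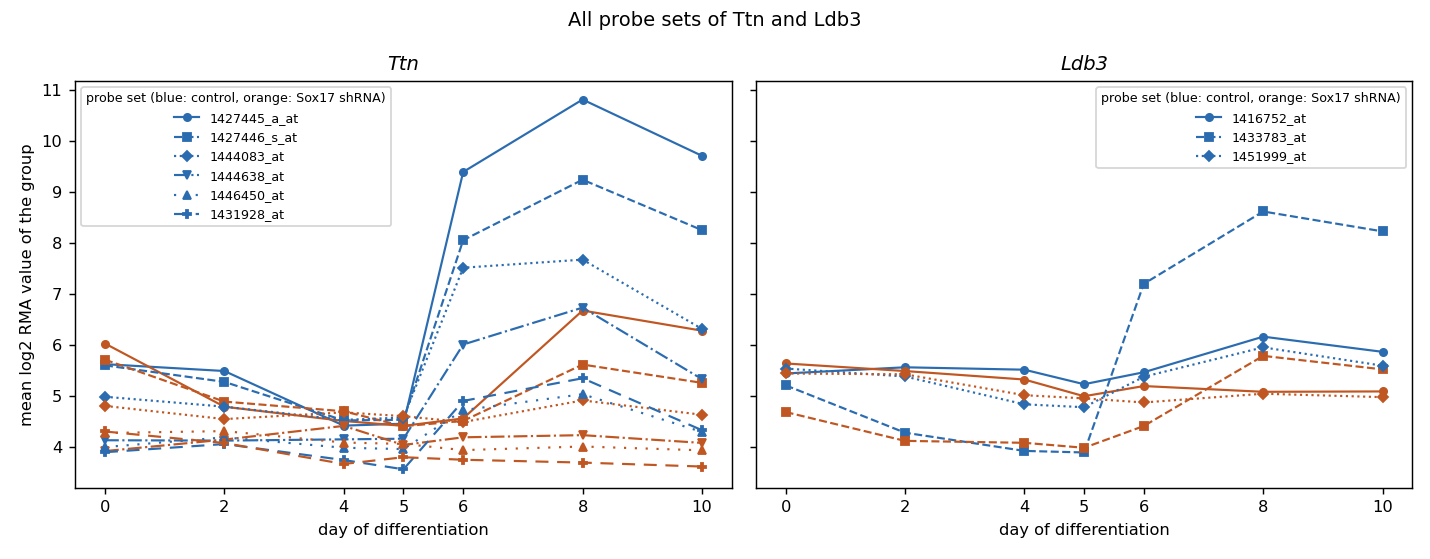
Group means (log2 expression value) of all 6 Ttn probe sets and all 3 Ldb3 probe sets by day of differentiation; blue lines are the control arm and orange lines the Sox17 shRNA arm, with 1 line style and marker a probe set. All Ttn probe sets rise in the control arm at day 6, while Ldb3's 1433783_at rises by 3.41 from day 0 to day 8 and the probe set chosen by the highest mean by 0.72.

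Tcap encodes telethonin, which caps the amino end of titin in the Z-disc. On the control arrays it read 6.26 and 6.47 at day 0, 6.55 and 6.41 at day 6, 6.76 and 6.58 at day 8, then 6.54 and 6.60 at day 10. On the Sox17 shRNA arrays it read 6.58 at day 0, 6.36 and 6.32 at day 6, 5.91 and 6.01 at day 8, then 6.03 and 5.98 at day 10. The control arm moved little, by 0.30 to day 8 (SE 0.13, adjusted p = 0.0467, limma) and 0.21 to day 10 (adjusted p = 0.165). The Sox17 shRNA arm fell by 0.58 from day 0 to day 10 (adjusted p = 0.0049), measured against the single array of day 0. Tcap and Ldb3 were the 2 of the 7 genes called lower at day 10 than at day 0 in that arm, where 35.6% of all genes were. With the bioB signal as a covariate neither fall passed (Tcap -0.27, adjusted p = 0.200, and Ldb3 -0.34, adjusted p = 0.297), while Tcap's control change to day 10 became 0.52 and passed (adjusted p = 0.0090). Ldb3's fall lost its call without either Sox17 shRNA array of day 10 (adjusted p = 0.0550 and 0.0807).

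Myoz2 encodes myozenin 2 (calsarcin 1), which ties the phosphatase calcineurin to alpha-actinin at the Z-disc. Its single probe set read 4.04 to 4.76 on the 27 arrays, with a mean of 4.27, and was above the filter value of 5.53 on 0 of them. It was therefore left out of the fit over 13297 genes. In the fit over all single-symbol probe sets its arm differences ran from -0.27 at day 10 (SE 0.10, adjusted p = 0.168, limma) to 0.16 at day 2 (adjusted p = 0.583). Its one change against day 0 that passed was a rise of 0.50 at day 2 of the Sox17 shRNA arm (adjusted p = 0.0152), and the control arm's change to day 8 was -0.20 (adjusted p = 0.0973).

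All 7 tested genes also pass the filter without the control arm's late days, when they are high. Outside the 6 control arrays of days 6 to 10, Mybpc3, Csrp3 and Tcap exceeded 5.53 on 20, 21 and 21 arrays, and Ttn, Actn2, Myom1 and Ldb3 on 7, 5, 4 and 5.

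Between days 6 and 8 of the control arm 6 of the 7 genes rose (5.65% of all genes), with Tcap at 0.19 (adjusted p = 0.396, limma). Ldb3's rise of 0.70 in this step (adjusted p = 0.0163) lost its call without any 1 of the 4 arrays compared (adjusted p = 0.0648 to 0.142). From day 8 to day 10 in the control arm 0 of the 7 genes were called changed, and 3 passed an unadjusted p below 0.05, all lower. Of all 13297 genes, 12 were called lower (0.0902%) and 35 higher. With array weights 4 of the 7 were called, but this setting weighted these control arrays most (2.86 at day 8, 5.29 at day 10). The share of all genes called with it is not given here, so this count has nothing to be set against. The changes in that step ran from -1.10 for Ttn (SE 0.25, adjusted p = 0.0761) to 0.01 for Csrp3, and all 6 Ttn probe sets had lower means at day 10. In the fit over all single-symbol probe sets 4 of these 6 were called lower (0.103% of all such probe sets). They ran from -0.74 for 1446450_at (adjusted p = 0.0127) to -1.40 for 1444638_at (0.0223). Among these 4, 1446450_at and 1431928_at read below the filter value of 5.53 on all 27 arrays. The probe set used for Ttn was not called in that fit (adjusted p = 0.0710). With the Sox17 shRNA 3 of the 7 genes rose between days 6 and 8, Ttn, Mybpc3 and Myom1 (5.93% of all genes), by 2.12, 1.22 and 1.33. These steps were compared after the levels had been seen.

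Before day 6 no difference between the arms was called in these genes in the main fit. The differences of the 7 genes, Sox17 shRNA minus control, lay between -0.30 and 0.40 at day 0, between -0.70 and 0.11 at day 2, between -0.19 and 0.24 at day 4 and between -0.24 and 0.11 at day 5. None was called on any of these 4 days by limma (0 of 7 each), where 1.89%, 2.54%, 5.14% and 9.39% of all genes were called in either direction. At shares this low, 0 of 7 does not set these genes apart from the rest. Only Ttn at day 2 passed an unadjusted p below 0.05, at -0.70 (SE 0.25, adjusted p = 0.18). Its levels that day were 5.47 and 5.50 on the control arrays and 4.88 and 4.69 on the Sox17 shRNA arrays, without overlap. With only the arrays of day 2, or with a replicate block nested in day, 1 of the 7 genes was called at day 2. Without replicate 2 of the Sox17 shRNA cultures of day 4, 1 of the 7 genes was called there, as higher.

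From day 6 on the genes were lower with the Sox17 shRNA. At day 6 5 of the 7 were called lower (2.36% of all genes), at day 8 all 7 (2.93%), at day 10 all 7 (4.38%) and on the average of these 3 days all 7 (10.0%). No tested member was called higher on that average (0 of 7), where 11.3% of all genes were. The median difference of the 7 genes was -1.27 at day 6, -2.45 at day 8, -2.04 at day 10 and -2.15 on average, against 0.03, -0.01, 0.02 and 0.02 over all genes. The values used here share their control arrays with the changes against day 0, so the 2 kinds of comparison are not independent.

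Titin showed the largest average difference of the 7 genes, -4.14 on the log2 scale (SE 0.15, adjusted p = 4.87e-13, limma), a level 17.6-fold lower in the Sox17 shRNA arm. At day 6 Ttn was 28.6-fold lower, at day 8 17.6-fold and at day 10 10.8-fold. Among its partners on the myosin filament, Mybpc3 was 4.42-fold lower on average (-2.15, SE 0.07) and the M-band's Myom1 3.59-fold (-1.84, SE 0.09). At the Z-disc Csrp3 was 5.26-fold lower (-2.40, SE 0.12), Actn2 4.45-fold (-2.15, SE 0.11), Ldb3 1.64-fold (-0.71, SE 0.10) and Tcap 1.38-fold (-0.47, SE 0.08). Low signals are compressed on arrays, so folds against a low level may be understated. Ldb3 by 1433783_at was 6.86-fold lower on average (-2.78, adjusted p = 1.62e-12 over all single-symbol probe sets).

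The 2 genes that did not pass at day 6 were Ldb3 (-0.27, adjusted p = 0.489, limma) and Tcap (-0.14, adjusted p = 0.73). For Ldb3 this depends on the probe set, since 1433783_at differed by -2.79 at day 6 (adjusted p = 2.08e-08). Ldb3 passed at day 8 (-1.08, adjusted p = 5.23e-04), also without any 1 of the 4 arrays of that day. The other later calls of these 2 genes were lost without single arrays. Tcap's at day 8 (-0.70, adjusted p = 0.0028) was lost without replicate 1 of the control arm (adjusted p = 0.0610). Tcap's at day 10 (-0.57, adjusted p = 0.0093) was lost without replicate 1 (0.0573) or 2 (0.0940) of the control arm or replicate 2 of the Sox17 shRNA arm (0.0605). Ldb3's at day 10 (-0.78, adjusted p = 0.006) was lost without replicate 2 of the control arm (0.0752).

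**Figure D3:**
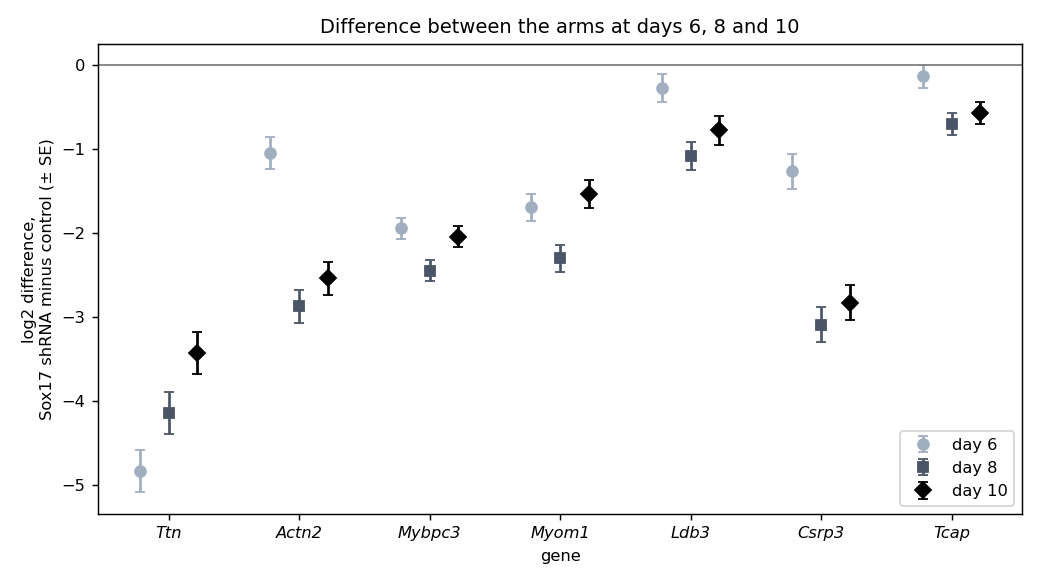
Difference between the arms (log2, Sox17 shRNA minus control, bars ± SE of the fit) for the 7 tested genes at days 6, 8 and 10. All points lie below 0, Ttn from -4.84 to -3.43, while Actn2 and Csrp3 go from -1.05 and -1.27 at day 6 to -2.54 and -2.83 at day 10.

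The difference did not run alike over the days in all 7 genes. Actn2 and Csrp3 had a larger deficit at day 10 than at day 6 by a direct test (2 of 7, where 0.466% of all genes were called lower). The change of the difference was -1.49 for Actn2 (SE 0.28, adjusted p = 0.0075, limma) and -1.56 for Csrp3 (SE 0.30, adjusted p = 0.0088). Ttn went the other way, by 1.41 (SE 0.36), and did not pass (adjusted p = 0.0693), though it did with only the arrays of the days compared (0.0241). Mybpc3 (-0.10) and Myom1 (0.16) lay near 0, with SEs of 0.18 and 0.23. The other Z-disc genes tested, Ldb3 (-0.51, adjusted p = 0.619) and Tcap (-0.43, adjusted p = 0.516), did not pass. By 1433783_at the change of Ldb3's difference was 0.08. The Actn2 call was lost without the first Sox17 shRNA replicate of day 6 (-1.28, adjusted p = 0.0530). The Csrp3 call was lost without replicate 1 of the control arm at day 6 (adjusted p = 0.0727) or day 10 (0.0561), or without the first Sox17 shRNA replicate of day 10 (0.0652).

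Set against the control arm at an earlier day, the Sox17 shRNA arm at day 10 did not match the control arm at day 6 in every gene. Between these groups 4 of the 7 genes were lower in the Sox17 shRNA arm (13.1% of all genes), with a median of -0.47. They were Ttn, Mybpc3, Csrp3 and Tcap. Ttn differed by -3.12 (SE 0.25, adjusted p = 5.66e-08, limma), and Mybpc3 differed by -0.83 (adjusted p = 8.23e-05). Myom1 (-0.32, adjusted p = 0.157) and Actn2 (-0.28, adjusted p = 0.309) did not pass. Ldb3 (-0.38, adjusted p = 0.107) did not pass by its chosen probe set, but did at -0.82 by the mean of its probe sets (adjusted p = 3.18e-04) and at -1.68 under the 75th percentile filter, which takes 1433783_at (1.96e-05). The calls of Csrp3 (-0.69, adjusted p = 0.0187) and Tcap (-0.47, adjusted p = 0.0115) each depended on single arrays: Csrp3's was lost without replicate 2 of the control arm (0.162) or replicate 1 of the Sox17 shRNA arm (0.190), and Tcap's without replicate 1 of the control arm (0.101) or replicate 2 of the Sox17 shRNA arm (0.0673). This comparison was chosen after the levels had been seen.

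Levels of Sox17 and of these genes were set side by side on the arrays of days 6 to 10. For replicate 2 of the Sox17 shRNA cultures of day 6, Sox17 read 9.39, between the control arrays of that day at 9.35 and 9.83. Ttn on that array read 4.65, against 9.31 and 9.47 in the control arm. That array therefore carried the arm's low titin level with a Sox17 level of the control arm on the same day. The 3′ minus 5′ signal of actin, a sign of RNA quality, was 0.753 on it, the highest of the 12 arrays of days 6 to 10, where control arrays read 0.412 to 0.537. Without that array the day 6 difference of Ttn was -4.93 (adjusted p = 3.98e-08, limma), and the same 5 genes were called lower.

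**Figure D4:**
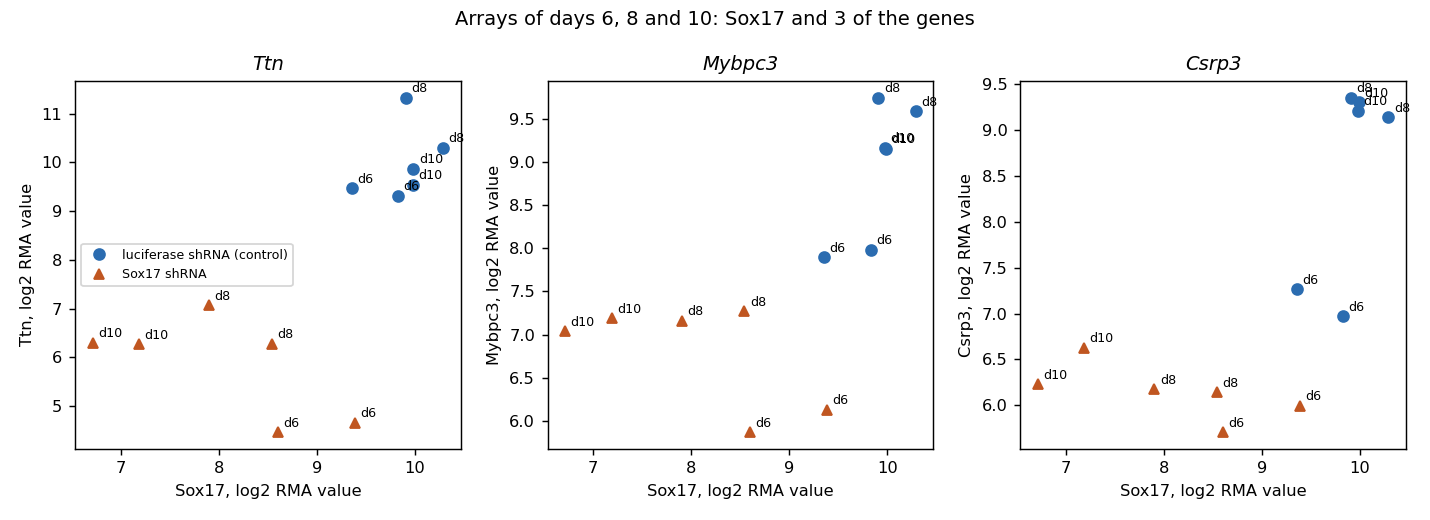
Level of Ttn, Mybpc3 and Csrp3 (vertical axes) against that of Sox17 (horizontal axis), all log2 expression values, on the 12 arrays of days 6, 8 and 10 (d6, d8, d10); blue circles are control arrays and orange triangles Sox17 shRNA arrays. The Sox17 shRNA array of day 6 with Sox17 at 9.39 lies among the control arrays on the horizontal axis but at 4.65 for Ttn.

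The 7 tested genes' profiles over the 14 group means correlated between r = 0.329 and r = 0.995 (a description only, since the points share arrays and days). The closest pair was Mybpc3 and Myom1, and among Ttn, Actn2, Mybpc3, Myom1 and Csrp3 the lowest value was 0.858. That group leaves out Ldb3, by its chosen probe set, and Tcap, which correlated with its genes at 0.329 to 0.792. Its high minimum therefore follows from the choice. The 10 genes most like the mean standardised profile of the 8, by the same measure over 14 group means, were Asb2 and Slc8a1 (both 0.98), Tecrl, Myl2, Gdnf, Smpx and Thbd (all 0.96), Myl3 (0.95), Esm1 and Rassf5 (both 0.94). Asb2, the nearest, had group means of 6.09 at control day 0, 8.50 at control day 8 and 5.54 at Sox17 shRNA day 8. Tecrl had 3.58, 7.50 and 3.68 at the same points.

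Other genes of the sarcomere, from lists that leave out the 8, were lower in part. Of 52 listed further sarcomere and Z-disc genes, 48 were on the array and 36 tested, and 16 of these were lower and 2 higher on the average of days 6 to 10, with a median of -0.17. The 5 largest differences were those of Nebl (-2.76), which encodes the Z-disc's nebulette, Smpx (-2.10), the methyltransferase Smyd1 (-1.55), the myosin chaperone Unc45b (-1.45) and the ubiquitin ligase Trim63 (-1.41), all lower. The 2 that were higher were Flnc (0.56, adjusted p = 0.0057, limma), which encodes filamin C, and Pgm5 (0.63, adjusted p = 1.89e-04). Over all genes 10.0% were called lower and 11.3% higher on this average.

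All 6 thick filament genes were lower, with a median of -4.40 and with Myh6 (-4.91), the alpha myosin heavy chain, and Myl7 (-4.83), the atrial myosin light chain, the furthest. Of 8 thin filament genes 5 were lower and 1 higher, with a median of -2.25, among them the troponin T gene Tnnt2 (-4.11) and cardiac actin, Actc1 (-3.24). Of 12 cardiac transcription factors 5 were lower and 1 higher (over all genes 10.0% and 11.3%), with a median of -0.27. The furthest were Myocd (-2.48), a coactivator of SRF at CArG boxes, and Mef2c (-1.82), a factor that binds the MEF2 motif, both lower, and Hand1 was higher (1.56).

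**Figure D5:**
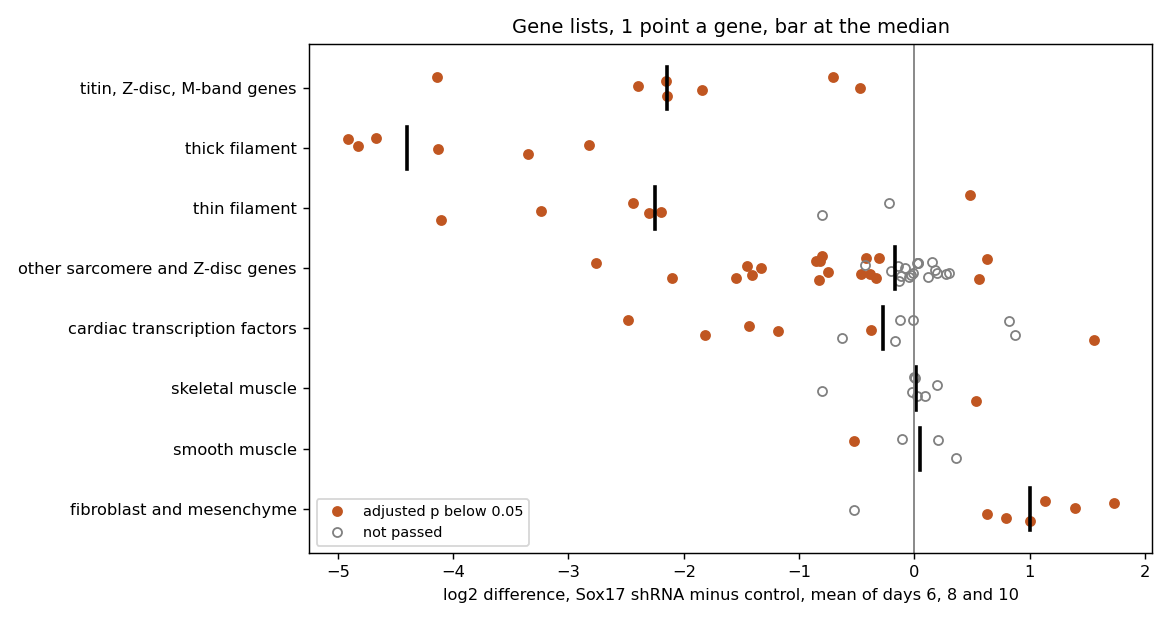
Difference between the arms averaged over days 6, 8 and 10 (log2, Sox17 shRNA minus control) for each gene of 8 lists; filled points passed an adjusted p of 0.05, open points did not, and the bar is the list's median. The 7 tested titin, Z-disc and M-band genes lie between -4.14 and -0.47, and the medians of the thick and thin filament lists are -4.40 and -2.25.

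Markers of some of the cell types that such cultures can hold also differed between the arms. Of 10 cardiomyocyte markers 9 were lower on the average of days 6 to 10 and 0 higher. All of these markers but Nppa, Ryr2 and Pln also stand in the filament and transcription factor lists above. The summed level of the 10 markers was 13.2 to 14.4 on the control arrays of days 6 to 10. It was 9.35 to 11.1 on the Sox17 shRNA arrays and 8.59 to 8.64 at day 0, so the groups did not overlap. Of 14 skeletal muscle markers 8 were tested, and 0 were lower and 1 higher, where 10.0% and 11.3% of all genes were. Myog, Myf5, Myf6, Pax7, Myh3 and Myh1 were not past the filter, and the summed level was 9.33 to 10.5 and 9.01 to 10.5 in the 2 arms. Of the 4 smooth muscle markers tested, 1 was lower and 0 higher.

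Fibroblast and mesenchyme markers were higher in 6 of 7 cases and lower in 0, with summed levels of 10.2 to 13.9 in the control arm and 10.5 to 15.2 in the Sox17 shRNA arm. Blood markers were higher in 4 of 4 tested (8.45 to 11.4 and 9.65 to 13.6), pluripotency markers in 3 of 5 (8.96 to 10.4 and 10.4 to 11.8), and endoderm markers, Sox17 among them, were lower in 5 of 6 (11.6 to 12.7 and 9.48 to 11.9). Of 4 neural markers 1 was lower, Pax6 (-1.74), and 1 higher, Tubb3 (0.80), with summed levels of 8.44 to 9.03 and 8.15 to 8.84. Of 5 endothelial markers 0 were called in either direction by limma, and 1 passed an unadjusted p below 0.05. The part of these shifts in the levels of the 8 genes was not tested.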

How the data were processed

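Total RNA of 27 cultures was hybridised to Affymetrix mouse arrays, 1 array a culture, and the deposited log2 values were made by the authors with RMA, per the submitters' processing notes. RMA corrects background, sets all arrays to 1 distribution and summarises probes, so a value is relative to the rest of its array. The RMA version is not given in the sources used here, nor is which arrays it took jointly.

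The platform's annotation gives 34958 probe sets 1 symbol and 932 several, and leaves 9211 unlisted. Those with 1 symbol that exceeded the overall median (5.53) on 2 or more arrays were kept (23536). A gene was represented by the one with the highest mean, which left 13297 genes. A mean for each of the 14 groups was fitted with limma 3.58.1 in R 4.3.3 (13 residual degrees of freedom, eBayes with an intensity trend), and two-sided p-values were adjusted by Benjamini and Hochberg over all genes, with a threshold of 0.05. The single array of the Sox17 shRNA arm at day 0 was taken to vary like the other groups. The fit treats arrays of different days as independent, so p-values measure the spread between these cultures. The number of arrays limits the precision. The script was tested on simulated data.

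The 8 genes, the lists and the comparisons were chosen with earlier results of these data known. Named besides the 8 were Sox17, the 10 genes most like them in profile, the 5 largest called differences of the further sarcomere list with those called the opposite way, and the 2 largest of each other list. Hand1 and the probe sets singled out were named after their values were seen. A list's summed level is the log2 of its summed linear values. Alternatives were other filters, the mean of probe sets, array weights, centring, the bioB signal as a covariate, other moderation, a replicate block, other baselines and leaving out arrays.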

Additional observations from a re-analysis of the deposited data

Results flagged for a closer look

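For 2 genes the difference between the arms itself differed between day 10 and day 6 by a direct test in limma. The change of the difference was -1.49 on the log2 scale for Actn2 (adjusted p = 0.0075) and -1.56 for Csrp3 (adjusted p = 0.0088), the arms lying further apart at day 10 in both. Both calls were lost without single arrays, Actn2's without 1 (adjusted p = 0.0530) and Csrp3's without any 1 of 3 arrays (0.0561 to 0.0727). The cause was not tested.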

How the results depend on the processing

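Leaving out 1 array at a time left the number of the 7 genes called on the average of days 6 to 10 at 7. Shares of all genes called without single arrays are not given here, so the counts below show only how far a number moved. With all arrays, many of the 13297 genes were called against day 0. The fewest were 1032 higher and 1150 lower, at Sox17 shRNA day 2. The most were 4239 higher and 5358 lower, at control day 8. The lowest and highest number called, in either direction, was 0 and 0 for the arm difference at days 0, 2 and 5, 0 and 1 at day 4, 5 and 5 for day 6, 6 and 7 for day 8, 5 and 7 for day 10, then 1 and 2 for day 10 minus day 6. Against day 0 it was, in the control arm, 0 and 0 at day 2 (1 with all arrays), 1 and 2 at day 4, 1 and 1 at day 5 (2 with all arrays), 5 and 5 at day 6, 6 and 7 for day 8, then 5 and 6 for day 10. In the Sox17 shRNA arm it was 1 and 1 at day 2 (2 with all arrays), 1 and 2 for day 4, 2 and 2 for day 5, 1 and 1 for day 6, 4 and 5 for day 8, then 3 and 4 for day 10 (5 with all arrays). For the steps compared after the levels had been seen it was 5 and 5 for control day 8 minus day 6, 0 and 1 for control day 10 minus day 8, 3 and 4 for Sox17 shRNA day 8 minus day 6, and 3 and 3 for Sox17 shRNA day 10 minus control day 6.

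Counts that moved by over 1.5 times under other settings were these. Control day 2 gave 0 with no filter. Control day 4 gave 2 with the 75th percentile as filter or with the mean of probe sets. The mean of probe sets also gave 1 for Sox17 shRNA day 2, 0 for Sox17 shRNA day 4 and 1 for control day 10 minus day 8. Array weights gave 0 for Sox17 shRNA day 4 and 4 for control day 10 minus day 8. With the bioB signal as a covariate control day 5 and Sox17 shRNA day 5 gave 1 each, Sox17 shRNA day 8 gave 3, and Sox17 shRNA day 8 minus day 6 gave 5. Against day 5 in place of day 0, Sox17 shRNA day 6 gave 0. The arm difference of day 2 gave 1 with only the arrays of that day. Ldb3 changed sign in the Sox17 shRNA arm. With the 75th percentile filter, which brings in the probe set 1433783_at, day 10 minus day 0 was 0.84 (adjusted p = 0.0110, limma). Against day 5 the change to day 10 was 0.094 (SE 0.17), near 0 and not called (adjusted p = 0.672). Ldb3 from day 8 minus day 6 was 1.38 with that filter and 0.48 with the mean of probe sets.

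Same-numbered replicates of both arms deviated from their group means with correlations of 0.0986 to 0.683, not all over 0.1, so the numbers were not taken to pair the samples. At day 4, where the correlation was 0.683, replicate 1 of both arms had the high bioB signal (9.04 and 9.37) and replicate 2 the low one (6.79 and 6.83), and with the block nested in day 0 genes were called there, as without it. With a replicate block 7 genes were called on the average of days 6 to 10, and with the block nested in day 1 was called at day 2. The change of Ttn's difference from day 6 to day 10 passed with the block nested in day (adjusted p = 0.0038) and with only the days compared (0.0241). Tcap at day 8 did not pass with only that day's arrays (0.0573). The cause of these changes was not tested. Low signals limit Myoz2 and the chosen Ldb3 probe set.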
